A study of Mus musculus with 6 samples.

Results

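Genes of prostaglandin synthesis were examined in RNA-sequencing libraries of tuft cells sorted from the mouse ileum. The genes were chosen by their known role, with earlier results of these data in view, and number 10 of the 23420 genes in the table. They encode both cyclooxygenases (Ptgs1, Ptgs2), 6 enzymes named as terminal synthases (Hpgds, Ptgds, Ptges, Ptges2, Ptges3, Tbxas1), the enzyme that starts prostaglandin breakdown (Hpgd) and a receptor for prostaglandin E2 (Ptger4). The 6 libraries form 1 group. The donors were C57BL/6J mice of genotype Gfi1b-eGFP, with no treatment or age in the labels. Green fluorescent protein reports activity of 1 allele of Gfi1b (the other is intact), a transcription factor gene active in tuft cells and also known in erythroid and megakaryocyte precursors. Viable GFP+ EpCam+ CD45- cells were collected, and with no second group every comparison is between genes of the same library. Each library is labelled as a mouse replicate, but how many animals gave each is not stated, and p-values measure the spread between these libraries.

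Prostaglandins are lipid signals made from arachidonic acid, which phospholipases A2 release from membranes. Either cyclooxygenase, the constitutive enzyme encoded by Ptgs1 or the inducible one encoded by Ptgs2, converts arachidonic acid to prostaglandin H2, and a terminal synthase then makes prostaglandin D2, E2, F2α, prostacyclin or thromboxane from it. Tuft cells are chemosensory epithelial cells known as an epithelial source of eicosanoids, a class of lipid signals that also includes the leukotrienes.

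All values are TPM, a share of all transcripts that is corrected for transcript length and so allows genes of a library to be compared. The length correction suits the full-length protocol that the methods describe. It would bias ratios between genes if the 3' polyA or droplet preparations that the labels also name had been used. TPM does not hold the number of reads, so depth is unknown and how low a level could have been seen cannot be stated where a gene is at 0. Differences are given on the log2(TPM + 1) scale, which compresses differences between genes of low level. Between 13044 and 13308 genes per library were listed above 0. The ribosomal RNA precursor Rn45s took 23.1% to 32.6% of TPM, and Gm20594 took 1.56% to 2.13% in replicates 1 to 3 against 5.18% to 5.64% in replicates 4 to 6, so these sets of libraries were also examined apart. The 13 tuft cell markers found in the table, none of them a member of the group described here, together reached 8681 to 16591 TPM, led by Cd24a and Trpm5. A large part of this sum was Cd24a alone, at 4291 to 9996 TPM. The libraries also held RNA of other epithelial markers, with sums of 3578 to 21516 TPM for 7 Paneth cell genes (led by Defa24 and Defa17), 2742 to 5916 TPM for 8 enterocyte genes (Fabp6 and Apoa1), 778 to 4318 TPM for 7 goblet cell genes (Zg16 and Tff3), 326 to 792 TPM for 5 stem cell genes (Olfm4 and Lgr5) and 379 to 536 TPM for 9 enteroendocrine genes (Sct and Gcg). Most of the enteroendocrine sum was Sct, at 331 to 474 TPM, while Gcg had 0 to 45.7 TPM and Neurod1 was above 0 only in replicate 3. In replicates 4 and 5 the Paneth cell sum (21516 and 13536 TPM) exceeded the tuft cell sum (11341 and 8681 TPM). It was below the tuft cell sum in the others. In such sorted pools, fewer cells of a type and less RNA per cell cannot be told apart.

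Of the 10 genes, 7 were listed above 0 in every library, against 47.2% of all genes in the table. The same 7 were above 0.1 TPM and above 1 TPM in every library, against 45.8% and 39.9% of all genes. Ptgs1 was the most abundant of them and Ptges3 the next, Hpgds and Hpgd followed at similar levels, and Ptgs2, Ptges2 and Ptger4 were low. Ptges and Tbxas1 were listed near or at 0, and Ptgds at 0 in every library. The 10 genes together had 451 to 709 TPM per library.

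**Figure D1:**
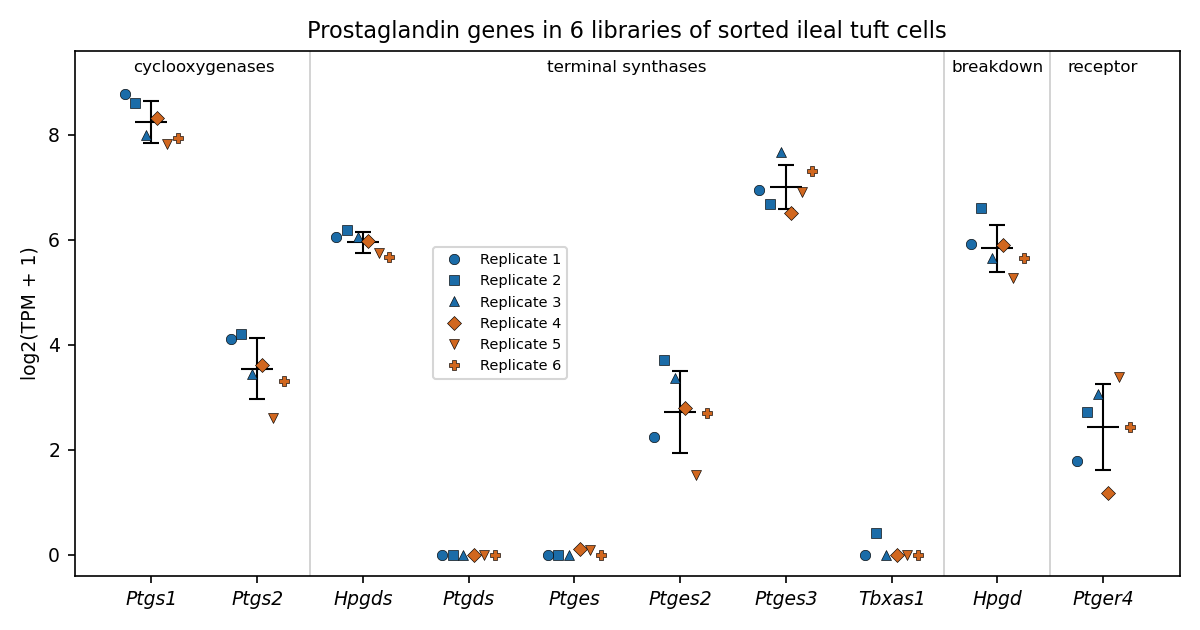
Level of each of the 10 genes as log2(TPM + 1) (vertical axis) in the 6 libraries (points, blue for replicates 1 to 3 and orange for replicates 4 to 6), with the mean and SD as bars where no library was at 0. Ptgs1 lies highest in every library, between 225 and 439 TPM, and Ptgds at 0 in every library.

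Ptgs1 (ENSMUSG00000047250.13), the gene of cyclooxygenase 1, spans 36230426 to 36252272 of chromosome 2 (GRCm38, plus strand, 11 exons). Replicates 1 to 6 had 439, 388, 254, 320.3, 225 and 243 TPM, and the mean was 312 ± 87.0 TPM (SD, n = 6). The highest libraries were replicates 1 and 2, and in each library the gene lay above at least 96.3% of the genes listed above 0. Ptgs2 (ENSMUSG00000032487.8), the gene of cyclooxygenase 2, spans 150100031 to 150108227 of chromosome 1 (plus strand, 10 exons). It was listed at 16.4, 17.5, 9.85, 11.2, 5.10 and 8.85 TPM, with a mean of 11.5 ± 4.69 TPM (SD, n = 6), again highest in replicates 1 and 2 and lowest in replicate 5.

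Ptgs1 exceeded Ptgs2 in 6 of 6 libraries, and the lowest value of Ptgs1 was above the highest of Ptgs2. The TPM of Ptgs1 was 22.2 to 44.0 times that of Ptgs2 in the same library (median 27.1), and Ptgs1 made up 95.7% to 97.8% of the cyclooxygenase transcripts. On the log2(TPM + 1) scale the difference was 4.70 ± 0.28 (SD, n = 6, two-sided exact sign-flip test by permutation within libraries, p = 0.031 and adjusted p = 0.0347). This p is the smallest that 6 libraries allow, and adjustment was by the Benjamini-Hochberg method over the 10 gene comparisons made. The 10 include those of Hpgds with Ptgds, Ptges and Tbxas1, genes near or at 0, whose p was bound to take this smallest value. Counting them makes the adjusted p somewhat smaller than it would be without them. The difference was 4.54 ± 0.13 within replicates 1 to 3 and 4.85 ± 0.31 within replicates 4 to 6, sets too small for a test to pass 0.05. In GENCODE M21, 148 of the 3884 exonic bases of Ptgs1 are shared with Gm43621, a gene model on the opposite strand that awaits experimental support, and the strand setting of the counting is not given.

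The 250 bases before the annotated start of each cyclooxygenase gene (RefSeq, GRCm38.p6, plus strand) are shown because these genes encode enzymes for the same reaction and differed widely in level. Capitals mark matches to any of 5 motifs searched on both strands.
Ptgs1, chr2:36230176-36230425: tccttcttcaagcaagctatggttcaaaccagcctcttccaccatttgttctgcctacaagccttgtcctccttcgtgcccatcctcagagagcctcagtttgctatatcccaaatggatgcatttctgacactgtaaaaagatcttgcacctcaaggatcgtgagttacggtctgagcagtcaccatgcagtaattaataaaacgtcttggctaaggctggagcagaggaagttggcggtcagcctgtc
Ptgs2, chr1:150099781-150100030: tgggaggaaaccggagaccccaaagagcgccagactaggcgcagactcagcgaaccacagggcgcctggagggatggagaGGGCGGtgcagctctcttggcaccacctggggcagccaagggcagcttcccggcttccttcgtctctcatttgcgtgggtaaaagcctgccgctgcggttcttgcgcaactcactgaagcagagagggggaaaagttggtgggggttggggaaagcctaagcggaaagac
The motifs were the TATA box TATAAA (in 12.4% of 32851 annotated promoters of this length), the GC box GGGCGG (32.7%), the octamer ATGCAAAT bound by POU factors (1.60%), the cyclic AMP response element TGACGTCA (1.55%) and the E box CACGTG (6.02%). The Ptgs1 window held none of these letters, and the Ptgs2 window held a GC box that begins 170 bases before the start. The Ptgs1 window was 48.0% G and C with 5 CpG, and the Ptgs2 window was 61.6% with 13 CpG, against medians of 52.4% and 6 over all promoters. A match is a description of the letters and not a bound site.

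Hpgds (ENSMUSG00000029919.5, chromosome 6 of GRCm38, 65117293 to 65144908, minus strand, 6 exons) encodes the haematopoietic prostaglandin D synthase, a glutathione-dependent enzyme. Replicates 1 to 6 had 65.6, 71.6, 65.4, 62.2, 53.0 and 49.9 TPM, and the mean was 61.3 ± 8.27 TPM (SD, n = 6). It varied least between libraries of the 7 genes above 0 in every library, with a coefficient of variation of 13.5%. Ptgds (ENSMUSG00000015090.13, chromosome 2, 25466709 to 25470046, minus strand, 7 exons), which encodes the unrelated lipocalin-type enzyme for the same product, was listed at 0 in all 6 libraries. Of the prostaglandin D synthases, Hpgds was thus the one listed above 0, and neither a fold nor a test is given against a gene listed at 0 throughout.

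Hpgds is also known in mast cells and macrophages, and Ptgs1 in those cells and in platelets. The summed markers of such cells were low beside Ptgs1, though not all at 0. Beside Hpgds they were not negligible. The mast cell sum reached 21.8 TPM in replicate 4 (Hpgds 62.2 TPM), and the macrophage sum 25.1 TPM in replicate 1 (Hpgds 65.6 TPM). Single markers were listed at up to 12.6 TPM for Gp1bb (from 1.34 TPM) and 9.06 TPM for Lyz2 (from 0.91 TPM). The summed TPM of 8 mast cell genes was 0 to 21.8 per library (median 1.65), with Mcpt1 and Fcer1a the most abundant and Tpsb2, Tpsab1, Cma1 and Ms4a2 at 0 in every library. Hpgds was listed at 62.2 TPM in replicate 4, which had the highest mast cell sum. It was listed at 65.6 and 49.9 TPM in replicates 1 and 6, where all 8 mast cell genes were at 0. Depth is unknown, so a marker at 0 does not show that such cells were absent. The part of such cells in the levels of Hpgds and Ptgs1 was not tested. The sum of 8 macrophage genes was 3.25 to 25.1 TPM, led by Lyz2 and C1qb, and 7 megakaryocyte and platelet genes reached 1.34 to 13.0 TPM, led by Gp1bb and Pf4, with Ppbp, Gp9, Gp6 and Treml1 at 0 everywhere. The sums were 1.71 to 951 TPM for 5 erythroid genes, nearly all of it Hba-a1 with Alas2 next, 24.8 to 213 TPM for 6 T cell genes, led by Gzma and Gzmb, and 0 to 62.0 TPM for 7 stromal and endothelial genes, led by Dcn and Col1a1, all but a trace of it in replicate 5.

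Of 50 searches of 5 motifs in the windows before 10 genes, 8 found a match. Over all 32851 promoters, 1.55% to 32.7% held a match, depending on the motif. The only octamer, a motif in 1.60% of all promoters, was before Hpgds, beginning 174 bases before the RefSeq start. It is shown with 11 bases on either side, because the octamer is the letter pattern of the POU factors, to which the tuft cell factor encoded by Pou2f3 belongs. With 50 searches made, a match of this kind can arise by chance, and binding of a POU factor there was not tested. GENCODE places the start of Hpgds farther upstream, so that by that annotation the octamer lies just inside the gene.
Hpgds, chr6:65144886-65144915, minus strand, octamer in capitals: ctttactctttATGCAAATacgttggacta

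Ptges3 (ENSMUSG00000071072.12, chromosome 10, 128058954 to 128077272, plus strand, 8 exons) was the most abundant of the genes named as terminal synthases. It encodes p23, a co-chaperone of the heat shock protein HSP90 found in most cells, to which prostaglandin E synthase activity has also been assigned. Replicates 1 to 6 had 122, 101, 203, 90.6, 119 and 157 TPM, with replicate 3 the highest and a mean of 132 ± 41.3 TPM (SD, n = 6). Ptges3 exceeded Hpgds in 6 of 6 libraries, with 1.42 to 3.14 times its TPM, and Hpgds minus Ptges3 was -1.05 ± 0.50 on the log2(TPM + 1) scale (SD, n = 6, exact sign-flip test, p = 0.031 and adjusted p = 0.0347). A processed pseudogene named Ptges3-ps is annotated on chromosome 6, and how the authors' counting divided reads between such copies is not known.

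Ptges2 (ENSMUSG00000026820.5, chromosome 2, 32395896 to 32405772, plus strand, 7 exons), which encodes a membrane-associated enzyme also named as a prostaglandin E synthase, was listed at 3.72, 12.1, 9.30, 5.90, 1.87 and 5.46 TPM. Its values varied 6.45-fold between libraries, lowest in replicate 5. Hpgds exceeded it in 6 of 6 libraries, at 5.93 to 28.3 times its TPM, and by 3.23 ± 0.68 on the log2(TPM + 1) scale (SD, n = 6, exact sign-flip test, p = 0.031 and adjusted p = 0.0347). Ptges (ENSMUSG00000050737.13, chromosome 2, 30889471 to 30929863, minus strand), which encodes the inducible microsomal enzyme that works with cyclooxygenase 2 in inflammation, was listed at 0.08 TPM in replicate 4, at 0.06 TPM in replicate 5 and at 0 in the other 4 libraries. Tbxas1 (ENSMUSG00000029925.13, chromosome 6, 38875404 to 39084585, plus strand), the gene of thromboxane A synthase, an enzyme of platelets and macrophages, was listed at 0.33 TPM in replicate 2 and at 0 in the other 5. Hpgds was higher than Ptges and than Tbxas1 in 6 of 6 libraries, which is given without a test because nearly all values of these genes are 0. Hpgds made up 23.5% to 39.2% of the TPM of the 6 terminal synthases and Ptges3 54.7% to 73.9%. Without Ptges3, Hpgds made up 85.2% to 96.5%.

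Of the cyclooxygenase and synthase pair with the highest levels apart from Ptges3, Ptgs1 exceeded Hpgds in 6 of 6 libraries by 2.29 ± 0.28 on the log2(TPM + 1) scale (SD, n = 6, exact sign-flip test, p = 0.031 and adjusted p = 0.0347). The TPM of Ptgs1 was 3.89 to 6.69 times that of Hpgds.

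**Figure D2:**
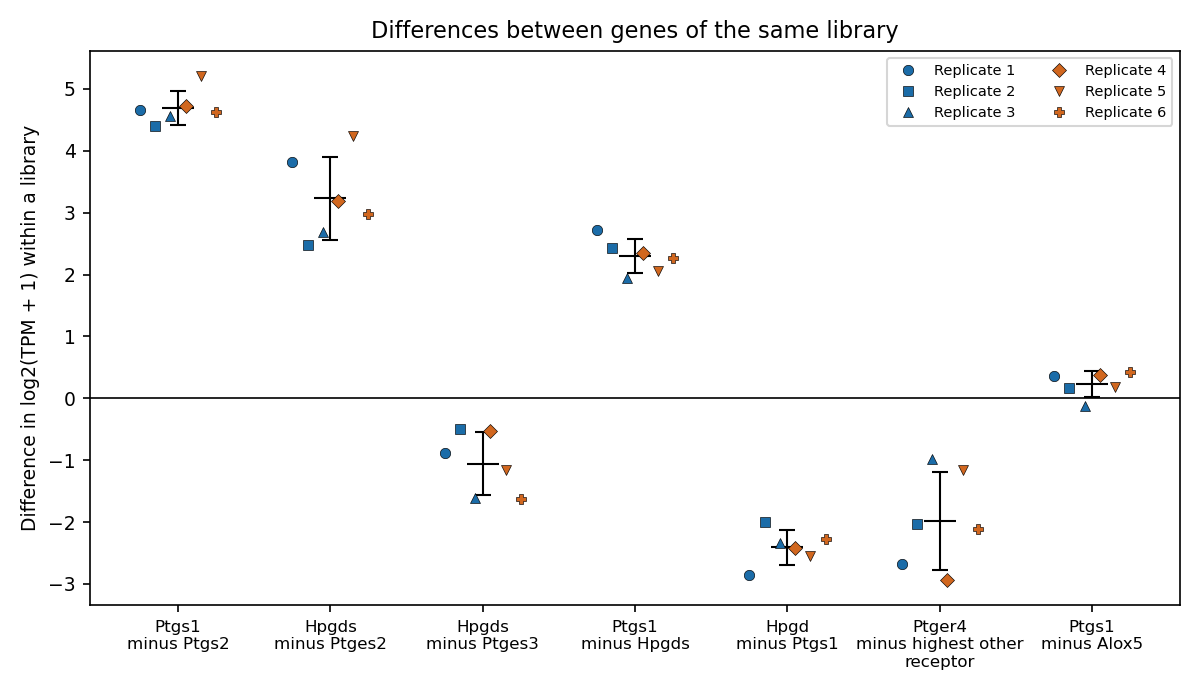
Difference in log2(TPM + 1) between genes of the same library (vertical axis) for 7 gene comparisons, with 1 point per library and bars for the mean and SD. The points of 6 comparisons lie on 1 side of 0, and those of Ptgs1 minus Alox5 lie on both sides, from -0.12 to 0.43. The comparisons with Ptgds, Ptges and Tbxas1 are not drawn because these genes were listed at or near 0.

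Hpgd (ENSMUSG00000031613.9, chromosome 8, 56294585 to 56321043, plus strand, 7 exons) encodes 15-hydroxyprostaglandin dehydrogenase, which inactivates prostaglandins and is known in the intestinal epithelium. Replicates 1 to 6 had 59.7, 96.2, 49.4, 58.8, 37.7 and 49.5 TPM, and the mean was 58.5 ± 20.1 TPM (SD, n = 6). Replicate 2 was highest and replicate 5 lowest. Hpgd lay below Ptgs1 in 6 of 6 libraries, and Hpgd minus Ptgs1 was -2.41 ± 0.29 on the log2(TPM + 1) scale (SD, n = 6, exact sign-flip test, p = 0.031 and adjusted p = 0.0347). In the order of the levels, Hpgds and Hpgd were neighbours that did not differ beyond their spread, with Hpgds higher in 5 of 6 libraries by 0.11 ± 0.32 (SD, n = 6). The same held for Ptges2 and Ptger4 (0.29 ± 1.17), and Tbxas1, Ptges and Ptgds were not separated at the low end. Between the other neighbours the mean difference exceeded its SD and had the same sign in 6 of 6 libraries: Ptgs1 over Ptges3 by 1.24 ± 0.70, Ptges3 over Hpgds, Hpgd over Ptgs2 by 2.29 ± 0.28, Ptgs2 over Ptges2 by 0.83 ± 0.62 and Ptger4 over Tbxas1.

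Further genes of prostaglandin breakdown and transport were all listed above 0 in every library, 4 of 4 of the list, against 47.2% of all genes. Ptgr2, which encodes a reductase that acts on the product of the dehydrogenase, had 36.0 ± 10.8 TPM (SD, n = 6, 19.0 to 52.3). Ptgr1, the gene of a reductase that also inactivates leukotriene B4, had 9.81 ± 5.47 TPM (3.86 to 16.8). Slco2a1, the gene of the prostaglandin uptake transporter, had 9.97 ± 3.56 TPM (7.17 to 16.0), and Abcc4, which encodes an efflux pump that can export prostaglandins, had 3.90 ± 1.11 TPM (2.23 to 5.33). In GENCODE M21, Ptgr2 shares 1896 of its 5929 exonic bases with a noncoding gene on the opposite strand.

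Ptger4 (ENSMUSG00000039942.15, chromosome 15, 5206661 to 5244187, minus strand, 3 exons) encodes the EP4 receptor for prostaglandin E2, which couples to cyclic AMP. Replicates 1 to 6 had 2.46, 5.62, 7.34, 1.25, 9.38 and 4.39 TPM, and the mean was 5.07 ± 3.03 TPM (SD, n = 6). Its highest value, in replicate 5, was 7.50 times its lowest, in replicate 4, the widest range of the 7 genes above 0 in every library. Of its 6648 exonic bases, 82 are shared with Ttc33 on the opposite strand, which was listed at 0.94 to 27.1 TPM and was lowest where Ptger4 was highest, and 1015 lie in a processed pseudogene, Gm15937.

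Of the other 8 prostanoid receptors, 1 was listed above 0 in every library (47.2% of all genes were) and 4, namely Ptger2, Ptgdr2, Ptgir and Tbxa2r, were listed at 0 in every library (32.9% of all genes were). The exception was Ptger1, the gene of the EP1 receptor for prostaglandin E2, at 21.2, 26.0, 15.4, 16.3, 22.1 and 22.4 TPM (mean 20.5 ± 4.01 TPM, SD, n = 6). Ptger1 was the highest other receptor in every library, and Ptger4 lay below it in 6 of 6 by 1.98 ± 0.79 on the log2(TPM + 1) scale (SD, n = 6, exact sign-flip test, p = 0.031 and adjusted p = 0.0347). In each library the comparator was picked as the highest of the 8 other receptors, which favours it over Ptger4. The sign-flip p does not allow for that choice. How strand was treated in the counting is not given, and the levels of Ptger1 and Ptger4 are both to be read with that limit. The direction rested on Ptger1. With it left out, a choice made after the values were seen, Ptger4 was the higher by 1.92 ± 0.84, a value with no test because the remaining receptors were mostly at or near 0. Ptgdr and Ptgfr, receptors for prostaglandins D2 and F2α, were at most 0.16 and 0.12 TPM, and Ptger3, the gene of the EP3 receptor, was listed at 4.88 TPM in replicate 5 and at 0 elsewhere. Both receptor genes for prostaglandin D2, the product of HPGDS, were thus at or near 0 in these libraries (Ptgdr, and Ptgdr2 under its older symbol Gpr44).

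**Figure D3:**
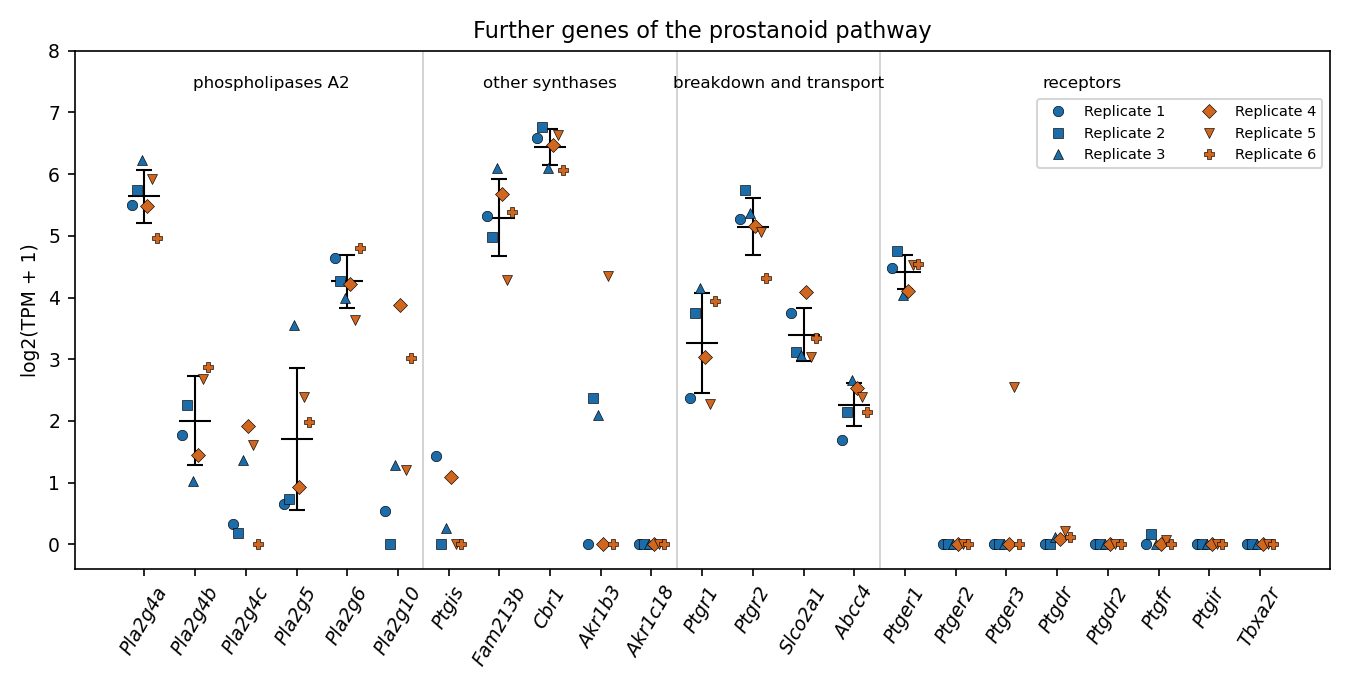
Level as log2(TPM + 1) (vertical axis) of 23 further genes of the prostanoid pathway, grouped by role, with 1 point per library and bars for the mean and SD where no library was at 0. Cbr1 is the most abundant, at 66.1 to 108 TPM, and Ptger1 is the receptor with values above 0 in every library.

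Upstream, Pla2g4a, the gene of the cytosolic phospholipase A2 that releases arachidonic acid in many cells, was the most abundant of 6 phospholipase genes, at 50.6 ± 15.1 TPM (SD, n = 6, 30.1 to 73.9). Pla2g6, the gene of a calcium-independent phospholipase A2, had 18.9 ± 5.72 TPM (11.4 to 26.9). Pla2g4b had 3.44 ± 2.10 TPM, though it shares 3878 of its 5831 exonic bases with Gm28042 on the same strand, and Pla2g5 had 3.35 ± 3.93 TPM. Pla2g10 ranged from 0 to 13.8 TPM and Pla2g4c from 0 to 2.77 TPM.

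Of 5 further enzymes that can act on prostaglandins H2 or E2, 2 were listed above 0 in every library, a share near the 47.2% of all genes. Cbr1, a carbonyl reductase with many substrates that can convert prostaglandin E2 to F2α, had 87.3 ± 17.1 TPM (SD, n = 6, 66.1 to 108), and Fam213b, which encodes a prostamide and prostaglandin F synthase, had 41.1 ± 16.8 TPM (18.5 to 67.7). Akr1b3, an aldose reductase gene, was at 0 in replicates 1, 4 and 6 and at 3.28 to 19.4 TPM in the others. Ptgis, the gene of prostacyclin synthase, was at 0 in 3 libraries and at most 1.70 TPM, and Akr1c18 was at 0 in every library.

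Ptgs1 was compared with Alox5, the gene of 5-lipoxygenase, which takes the same substrate into the leukotriene branch. Alox5 had 341, 346, 277, 245, 198 and 180.0 TPM in replicates 1 to 6, values that overlapped those of Ptgs1. Ptgs1 was higher in 5 of 6 libraries, by 0.23 ± 0.21 on the log2(TPM + 1) scale (SD, n = 6), which missed the threshold of 0.05 (exact sign-flip test, p = 0.0625 before and after adjustment).

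Between libraries, Ptgs1 moved with the tuft cell markers. Against the median of the 13 tuft cell markers on the log2(TPM + 1) scale, 8.56 ± 0.49 over the libraries, Pearson's r was 0.973 (n = 6, exact permutation over 720 pairings, p = 0.00833, adjusted p = 0.025) and Spearman's rho was 0.829 (exact permutation p = 0.0583, adjusted p = 0.154). Leaving out replicates 1 and 2, whose list values were most extreme, gave an r of 0.872. With any single library left out r stayed between 0.957 and 0.993, and no adjusted p was then below 0.05. Replicates 1 and 2, the highest in Ptgs1 and in the tuft cell list, were also the highest in Hba-a1 (669 and 950.0 TPM, against 1.61 to 167 TPM in the others), and the part of erythroid RNA in the relation was not tested. Centred within replicates 1 to 3 and 4 to 6, r was 0.959, with an exact permutation p = 0.0833 over 36 pairings (adjusted p = 0.208), so the relation passed 0.05 by Pearson's r in the pooled libraries and not by rho or within sets. For Hpgds and the same list r was 0.750 (n = 6, exact permutation p = 0.101, adjusted p = 0.152) and rho 0.771 (exact permutation p = 0.103, adjusted p = 0.154), with r of 0.518 without replicates 1 and 2 and 0.596 within sets. For Hpgd and 8 enterocyte genes r was -0.13 (n = 6, exact permutation p = 0.822, adjusted p = 0.822) and rho 0.314 (exact permutation p = 0.564, adjusted p = 0.564), with r of -0.41 without replicates 3 and 4 and 0.0948 within sets. These 3 relations were adjusted together.

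**Figure D4:**
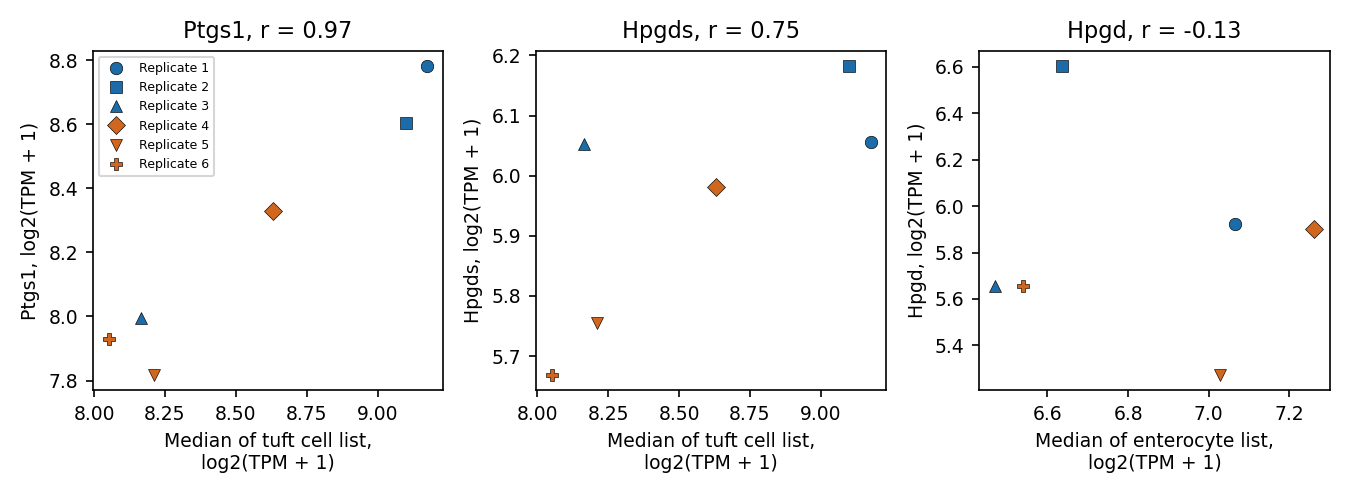
Ptgs1 and Hpgds against the median of 13 tuft cell markers, and Hpgd against the median of 8 enterocyte markers, all as log2(TPM + 1), with 1 point per library (blue for replicates 1 to 3 and orange for replicates 4 to 6). Ptgs1 rises with the tuft cell list (r = 0.973, from 225 to 439 TPM), whereas Hpgd shows no such order with the enterocyte list.

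A measure that does not depend on how libraries are scaled is the SD over libraries of the log2 ratio of 2 genes, which is small where they keep a constant ratio. It was computed over 6937 genes above 0 in every library with a mean of at least 10 TPM, and is a description without a test. All 13 tuft cell markers kept a more constant ratio to Ptgs1 than the median gene did, with a median SD of 0.23 against 0.54 over all genes. The background was not matched for level, and the tuft cell markers had means of 62.4 to 6578 TPM. The medians for the other lists were 0.71 (enterocyte), 1.34 (goblet, 5 genes), 1.23 (Paneth) and 0.38 (stem cell, 4 genes). The same order of tuft cell markers below the median of all genes was seen for Ptgs2 (0.46 against 0.70, 13 of 13 markers), Hpgd (0.37 against 0.57, 13 of 13) and Hpgds (0.33 against 0.45, 12 of 13). The 4 stem cell markers also had medians below those of all genes for Ptgs1, Ptgs2 (0.52), Hpgd (0.41) and Hpgds (0.39), with 3 of 4 markers below in each, so a constant ratio was not particular to tuft cell markers. Ptges3 differed, with a median SD to the tuft cell markers of 0.71 against 0.62 over all genes and 2 of 13 markers below that value. The genes with the most constant ratio to Ptgs1 were Zfp512 (SD 0.03), Phgr1 (0.04) and Vamp2 (0.07), and those to Hpgds were Cdh1 (0.03), Actr2 (0.05) and H3f3b (0.05). They are the smallest of 6936 values over 6 libraries. Small SDs are to be expected from picking the extreme of so many, and a link to either gene was not tested. Zfp512 was itself at only 8.30 to 15.9 TPM.

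**Figure D5:**
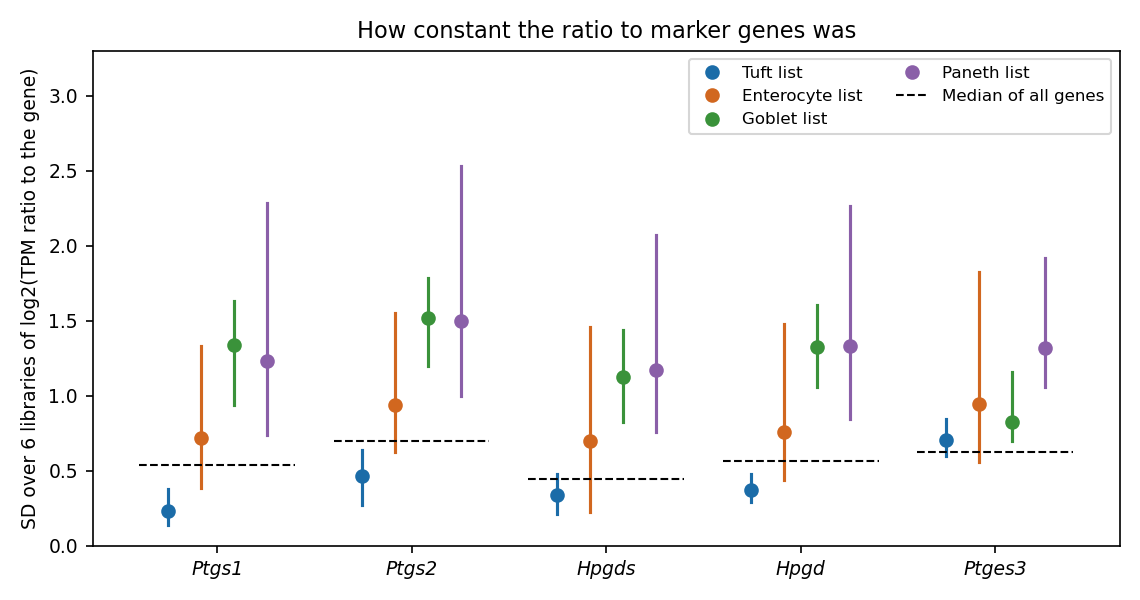
SD over the 6 libraries of the log2 TPM ratio (vertical axis) between 5 prostaglandin genes and the genes of 4 marker lists, drawn as the median (point) and range (line) of each list, with the median over all genes as a dashed line. The tuft cell list has the smallest median of these 4 lists for each of the 5 genes, below the dashed line for all but Ptges3.

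Rescaling the libraries by median-of-ratios factors narrowed the spread of some of the genes and not of others, without following their level. The coefficient of variation of Hpgds went from 13.5% to 6.51%, that of Ptgs1 from 27.9% to 23.0%, that of Hpgd from 34.4% to 27.0% and that of Ptgs2 from 40.9% to 34.9%. That of the low gene Ptges2 went from 58.3% to 51.7%. That of Ptges3 changed little (31.2% and 30.4%), and that of Ptger4 was slightly higher after rescaling.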

How the data were processed

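The paper's methods state that RNA of sorted cells was amplified by a modified SMART-Seq2 protocol and sequenced in pairs. Beside this protocol, each library's label also names 10X droplet and 3' polyA preparations. The authors aligned reads to the UCSC mm10 transcriptome with Bowtie and deposited gene levels as TPM from RSEM v1.2.3, which divides reads that align to several transcripts by estimated shares. How strand was treated is not given in the sources used here, and the submitters' notes also list TopHat and DESeq2, and no comparison from either is used here.

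TPM were used as deposited. Genes were compared within libraries by exact sign-flip permutation of differences in log2(TPM + 1) over 64 assignments, adjusted over 10 comparisons. The members and lists were chosen with earlier results of these data known. Named are all members, pathway genes whose mean reached 1 TPM, Alox5, the top 2 of each marker list by level and the 3 genes of most constant ratio to Ptgs1 and to Hpgds. Other genes are named where they were at 0 in some or all libraries or share bases with a named gene, chosen after values were seen. Of the marker genes 2, Sh2d6 and Hbb-bt, were not found under these symbols, and Ptgdr2 and Adgre1 were matched by RefSeq synonyms. Positions come from GENCODE M21 (GRCm38, the assembly of mm10, though not the authors' gene models). The annotation around Ptger1 is not reported here. The ratio measure and the rescaling were tested on simulated data. For the ratio measure, the planted genes followed a chosen gene far more closely than the tuft cell markers followed Ptgs1 or Hpgds. That test does not show how well the measure finds ratios as variable as those of the markers. Software was scipy 1.17.1, numpy 2.4.6 and pandas 2.3.3 under Python 3.11.15, with matplotlib 3.10.9 for plots.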

Additional observations from a re-analysis of the deposited data

Results flagged for a closer look

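In 4 of 38 measures screened (the TPM of members and pathway genes and the 10 differences), the highest library stood apart from the rest by a gap that exceeded Dixon's 95% critical value, as a share of the whole range. About 1 group in 20 does so by chance, which is 1.9 of 38, but this rate does not hold where the other 5 libraries are all at 0, as for Tbxas1 and Ptger3, so the number of such measures says little. Tbxas1 was at 0.33 TPM in replicate 2 and at 0 elsewhere. Ptger3 was at 4.88 TPM in replicate 5 and at 0 elsewhere. Akr1b3 was at 19.4 TPM in replicate 5 and at most 4.19 TPM elsewhere, and its mean was 4.49 TPM with that library and 1.49 TPM without it. Pla2g5 was at 10.8 TPM in replicate 3 and at most 4.23 TPM elsewhere, with means of 3.35 and 1.86 TPM. Replicate 5 was also the library with the highest sum of stromal and endothelial genes (62.0 TPM, of which Dcn 59.4 TPM), and the part of such cells in these values was not tested.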

How the results depend on the processing

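The 10 gene comparisons kept their direction and their side of the adjusted threshold under pseudocounts of 0.1 and 0.01, values under 0.1 TPM set to 0, both rescalings and the exact Mann-Whitney test without pairing, and their direction with each library left out and within replicates 1 to 3 and 4 to 6. A common factor for a library cannot change which gene is higher in it. The exception was added after the data were seen: without Ptger1, Ptger4 minus the highest other receptor was 1.92 in place of -1.98. The comparisons of Hpgds with Ptgds, Ptges and Tbxas1 say nothing of stability, since their direction was fixed once Hpgds was above 0. Where another difference had the same sign in every library, pseudocounts, the filter, rescaling, left-out libraries and the sets could not change that sign. Its sign-flip p with all libraries then stayed at the smallest value, so these settings do not test the stability of such comparisons. With 5 libraries the smallest sign-flip p is 0.0625, so gene comparisons with 1 library left out carry no test. The relation of Ptgs1 with the tuft cell list kept r between 0.957 and 0.993 with each library left out, where no adjusted p was below 0.05, and 0.959 within sets, which have fewer pairings by construction. The r of Hpgd with the enterocyte list changed sign, from -0.13 to between -0.29 and 0.238 with each library left out (positive without replicate 2 or 5) and to 0.0948 within sets. Median-of-ratios rescaling moved none of 25 gene means by more than 1 SD, while rescaling without Rn45s and Gm20594, which raises every value, moved 14 of them. The count of 7 genes above 0 in every library stayed within 1.5 times under each threshold tried. No paired analysis was possible because there is no second group of libraries to pair with these 6, and the pairing named above is of genes within a library. Without read numbers, which zeros come from shallow sequencing cannot be told.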
